A study of Mus musculus with 10 samples.

Results

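A set of 10 genes that serve as markers of injured kidney tubules was followed in the unclamped kidney of mice whose other kidney had lost its blood flow for 45 min. They were Havcr1, Clu, Spp1, Vim, Krt8, Krt18, Cd44, Cd24a, Anxa2 and Hbegf, and each was measured by all probe sets that the platform annotation maps to its symbol alone. That gave 22 of the 22626 probe sets that are not controls, for 9 of the 10 genes, out of 12393 genes with a probe set of their own. The RNA level of Spp1, which encodes the secreted phosphoprotein osteopontin, was not analysed here. A filter on dim probe sets kept 17 of the 22, for 7 genes: Clu, Vim, Krt8, Krt18, Cd24a, Anxa2 and Hbegf. Havcr1, Cd44 and 2 of the 3 Anxa2 probe sets lay below the filter and are described by their levels. On this platform a name ending in _x_at or _s_at marks a probe set that can also match other transcripts, and whether it did so here was not tested.

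The mice were male C57/BLACK6 animals of 7 weeks and about 20 g. In contralateral mice both vessels of the left kidney were clamped for 45 min under ether, and the other kidney was taken after 3 h of reperfusion. At 1 h and 2 h of reperfusion the mice were injected with 4-thiouridine (s4U, 200 µM), a nucleoside that marks RNA made after the injection. In normal mice the injections came at 0 h and 1 h, and a kidney was taken at 2 h. All mice of both groups received tritiated cytidine with the s4U. The labels describe no sham operation, so clamping, surgery, anaesthesia and the sampling times cannot be told apart. RNA was measured on 10 one-colour arrays in 6 groups. For each kidney there was 1 array of newly transcribed RNA, which is the s4U-carrying fraction, 2 of amplified total RNA and 2 of total RNA. Arrays of a group are biological replicates by their titles.

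Tubule cells that are damaged lose part of their specialised transport function and switch on or raise a set of genes, only some of which healthy kidney expresses little. The set includes a receptor for dying cells (Havcr1), a secreted chaperone (Clu), filament proteins of simple epithelia and mesenchyme (Krt8, Krt18, Vim), surface and membrane proteins (Cd44, Cd24a, Anxa2) and a growth factor for the EGF receptor (Hbegf). In a clamped kidney these genes are widely used to follow ischemic damage. The kidney studied here was not clamped.

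Brightness and 3' bias differed between the arrays. The median deposited intensity was 18.6 on the contralateral and 70.3 on the normal newly transcribed array, against 26.6 to 59.7 on the remaining 8. For the Gapdh controls the 3'/5' ratio was 68.9 on the contralateral and 12.7 on the normal newly transcribed array. The ratio was 4.39 to 6.23 in contralateral and 4.21 to 5.29 in normal amplified total RNA. In total RNA it was 1.03 and 1.12 on the contralateral arrays and 0.938 and 0.972 on the normal arrays. The part of these differences in the results below was not tested. All levels given are normalized log2 values, on which a difference of 1 is a 2-fold change. In whole kidney RNA, a change in the number of cells of a type and a change in RNA per cell cannot be told apart.

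Over all preparations, 0 of the 7 tested genes passed the test between contralateral and normal kidneys (limma, adjusted p under 0.05), by their brightest probe set. Of all 13575 probe sets tested, 0.442% passed. At an unadjusted p under 0.05, 3 of the 7 genes were found, namely Krt18, Krt8 and Cd24a, and 14.6% of all probe sets. The median difference of the 7 genes was 0.34 log2 units, against 0 over all probe sets. This fit includes both newly transcribed arrays. Without them each of the 7 differences was smaller in size: Clu 0.18, Vim 0.15, Krt8 0.37, Krt18 0.37, Cd24a -0.25, Anxa2 0.13 and Hbegf -0.03. In total RNA again 0 of 7 passed (1.91% of all probe sets passed, and 1.58% rose). At an unadjusted p under 0.05 total RNA gave 2 of the 7, Krt18 and Hbegf, and 14.8% of all probe sets. In amplified total RNA 2 of 7 passed, Cd24a and Hbegf, and both fell (10.3% of all probe sets passed, 4.1% higher and 6.22% lower). On the newly transcribed arrays, 1 for each kidney and therefore without a test, 4 of the 7 genes were at least 2-fold higher in the contralateral kidney and 2 at least 2-fold lower. The share of all probe sets at least 2-fold apart on these arrays was 32.8%, with 14.4% higher and 18.5% lower.

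The higher counts on the newly transcribed arrays rest on the normalization between 2 arrays of unequal brightness. As deposited, the intensity of Clu was 982.1 on the contralateral and 594 on the normal array, and that of Krt8 502.6 on the contralateral and 406.2 on the normal array. Deposited intensities of 3 genes ran the other way from their normalized levels. Krt18 had 102.3 on the contralateral and 122.5 on the normal array, Anxa2 had 197.2 on the contralateral and 356.4 on the normal array, and Vim had 100 on the contralateral and 243.5 on the normal array. Cd24a had 562.7 on the contralateral and 3373.8 on the normal array, and Hbegf had 36.3 on the contralateral and 478.9 on the normal array.

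**Figure D1:**
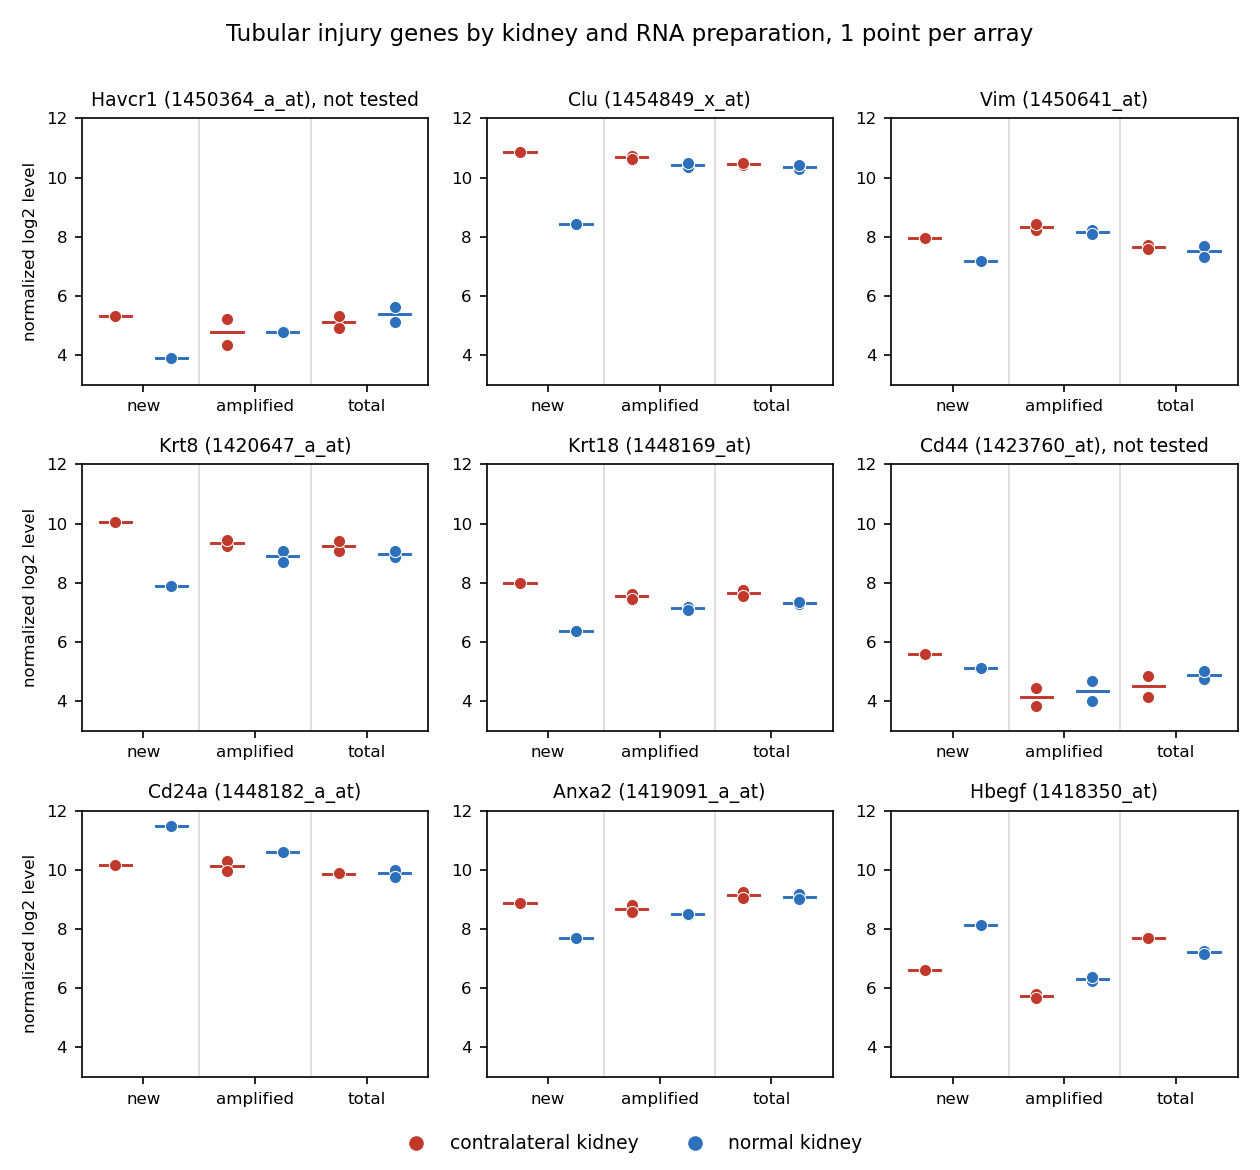
Normalized log2 level of the brightest probe set of each of the 9 measured genes (vertical axis) by RNA preparation (horizontal axis), with 1 point per array and a bar at the group mean, contralateral in red and normal in blue. Clu, Krt8 and Krt18 lie higher on the contralateral newly transcribed array than on the normal one, Cd24a and Hbegf lie lower, and the total RNA groups lie close together.

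Krt8 and Krt18 encode the paired keratins of simple epithelia, which assemble with each other into the filaments of tubule and collecting duct cells. Both genes lie on chromosome 15, with 2 other RefSeq genes starting between them, and their promoters are shown because they were the members whose probe sets were most often higher without overlap. The RefSeq sequences (GRCm38.p6) run 5′ to 3′ from base -150 to base 10 around the annotated start, and the capitals mark TATAA, the core of a TATA box.
Krt8, chr15:102004333-102004492, minus strand: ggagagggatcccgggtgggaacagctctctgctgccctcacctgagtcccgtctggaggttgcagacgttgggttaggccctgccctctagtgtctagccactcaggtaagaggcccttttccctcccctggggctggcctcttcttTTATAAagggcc
Krt18, chr15:102028066-102028225, plus strand: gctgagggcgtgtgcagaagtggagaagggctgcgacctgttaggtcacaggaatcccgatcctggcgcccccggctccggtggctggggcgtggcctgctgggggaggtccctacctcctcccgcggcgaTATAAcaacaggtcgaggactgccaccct
In Krt8 the letters TATAA begin at base -1 on the gene's strand and overlap the same letters on the other strand, read from base -2, so the capitals include 1 more base. In Krt18 they begin at base -19. The Krt8 letters reach past the annotated start. Whether the letters act as a TATA box in either gene was not tested. RefSeq promoter windows were held for 7 of the 10 genes, and TATAA was found on either strand in 24.9% of the 32851 windows of 300 bases in the table. Of the other motifs searched on both strands, the AP-1 motif TGANTCA occurs in 7.81% and the GC box GGGCGG in 35.7% of all windows. Neither was in the Krt8 or Krt18 window. Anxa2 held all 3 motifs, with TATAA at base -17, TGANTCA at -95 and GGGCGG at -190, -48 and -24. Vim held TATAA at base -32, overlapping a copy on the other strand. Havcr1 held TATAA at base -162 in 1 window, also overlapping such a copy, and TGANTCA at base 11 in another. Spp1 held TATAA at base -211 in 1 window and -238 in another, and Cd44 held GGGCGG at base 4.

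Krt8 by its brightest probe set (1420647_a_at) stood at 10.05 on the contralateral and 7.89 on the normal newly transcribed array. It stood at 9.25 and 9.44 in contralateral and at 9.09 and 8.72 in normal amplified total RNA. In total RNA it stood at 9.09 and 9.43 on the contralateral arrays and at 8.87 and 9.08 on the normal arrays. The contralateral arrays were above the normal arrays in each preparation, with the narrowest gap in total RNA. Arrays of the kidneys did not overlap, in either direction, for 54.9% of all probe sets in amplified total RNA and for 46.6% in total RNA. The difference was 0.72 ± 0.26 (SE) over all preparations (adjusted p = 0.26), with a 95% interval of 0.15 to 1.3. It was 0.44 ± 0.16 in amplified total RNA (adjusted p = 0.106) and 0.29 ± 0.16 in total RNA (adjusted p = 0.427), and none of these passed.

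A second Krt8 probe set, 1435989_x_at, rose in amplified total RNA and in total RNA. It stood at 9.91 on the contralateral and 7.71 on the normal newly transcribed array. It read 9.04 and 9.16 in contralateral and 8.18 and 8.33 in normal amplified total RNA. Total RNA gave 8.46 and 7.89 on the contralateral arrays and 7.33 and 7.14 on the normal arrays. All contralateral arrays lay above all normal arrays of the same preparation. The rise was 0.85 ± 0.17 in amplified total RNA, or 1.8-fold (limma, adjusted p = 0.00976), and 0.94 ± 0.17 in total RNA, or 1.92-fold (adjusted p = 0.0216).

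In total RNA the rise of 1435989_x_at passed in 13 of 19 alternative fits (0.67 to 1.23, adjusted p = 0.00827 to 0.19). It did not pass without contralateral total replicate 1 (0.67, adjusted p = 0.143), normal total replicate 1 (1.04, adjusted p = 0.0613) or normal total replicate 2 (0.85, adjusted p = 0.19). In amplified total RNA it passed in 17 of 19 (0.75 to 0.92, adjusted p = 0.00332 to 0.0939), and not without normal amplified total replicate 1 (0.77, adjusted p = 0.0939) or 2 (0.92, adjusted p = 0.0527). Over all preparations its difference of 1.16 ± 0.21 missed the threshold (adjusted p = 0.0536). Without both newly transcribed arrays it was 0.9 and passed (adjusted p = 0.00544), and over 19 alternatives it passed in 5 (adjusted p = 0.00469 to 0.168). The third Krt8 probe set, 1423691_x_at, rose by 0.49 ± 0.13 in amplified total RNA (adjusted p = 0.0369), and its difference was 0.14 in total RNA. That rise passed in 11 of 19 alternatives (0.37 to 0.61, adjusted p = 0.0159 to 0.279). It did not pass without contralateral amplified total replicate 2 (0.4, adjusted p = 0.126) or normal amplified total replicate 1 (0.61, adjusted p = 0.072) or 2 (0.37, adjusted p = 0.279). Without either contralateral total array its adjusted p was 0.0505 and 0.0503. When the 3 Krt8 probe sets were averaged, Krt8 passed in amplified total RNA (0.59, adjusted p = 0.00805).

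Krt18, measured by 1 probe set, stood at 7.99 on the contralateral and 6.36 on the normal newly transcribed array. It stood at 7.63 and 7.45 in contralateral and at 7.2 and 7.09 in normal amplified total RNA. Total RNA gave 7.75 and 7.54 on the contralateral arrays and 7.27 and 7.34 on the normal arrays. As for Krt8, the contralateral arrays were above the normal arrays in each preparation. Its difference was 0.62 ± 0.2 over all preparations (adjusted p = 0.221), with a 95% interval of 0.18 to 1.06. It was 0.39 ± 0.14 in amplified total RNA (adjusted p = 0.106) and 0.34 ± 0.14 in total RNA (adjusted p = 0.296), and none of these passed.

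Krt18, 2 Krt8 probe sets (1420647_a_at and 1435989_x_at) and 1 Clu probe set (1437458_x_at) were higher without overlap in both total and amplified total RNA and also higher on the newly transcribed array. These are 4 of the 17 tested probe sets, and 4.9% of all probe sets had this pattern. No member probe set had the same pattern in the lower direction, which 4.28% of all probe sets had. Among 8 tested genes that work with keratins and other intermediate filaments, 0 rose or fell in total RNA. In amplified total RNA, where 6.22% of all probe sets fell, 1 of the 8 fell. That gene was Lmna, which encodes the nuclear lamins A and C (-0.69, adjusted p = 0.0434). The list's median difference was 0.09 in amplified total RNA and 0.15 in total RNA.

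Markers of the collecting duct, an epithelium rich in Krt8 and Krt18, were set beside the keratins. Of 8 tested collecting duct markers, 2 rose and 1 fell in amplified total RNA and none passed in total RNA. Of all probe sets 4.1% rose and 6.22% fell in amplified total RNA. The sodium channel subunits Scnn1a (0.5, adjusted p = 0.0345) and Scnn1g (0.47, adjusted p = 0.0456) rose, and the proton pump subunit Atp6v1b1 fell by 0.57 (adjusted p = 0.0427). The summed linear level of the 8 markers was 2300 on the contralateral and 1410 on the normal newly transcribed array. It was 2390 and 2230 in contralateral and 1950 and 2280 in normal amplified total RNA, and 2160 and 1940 in contralateral and 1640 and 1810 in normal total RNA. None of the markers was at 0 on any array. Their part in the keratin values was not tested.

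**Figure D2:**
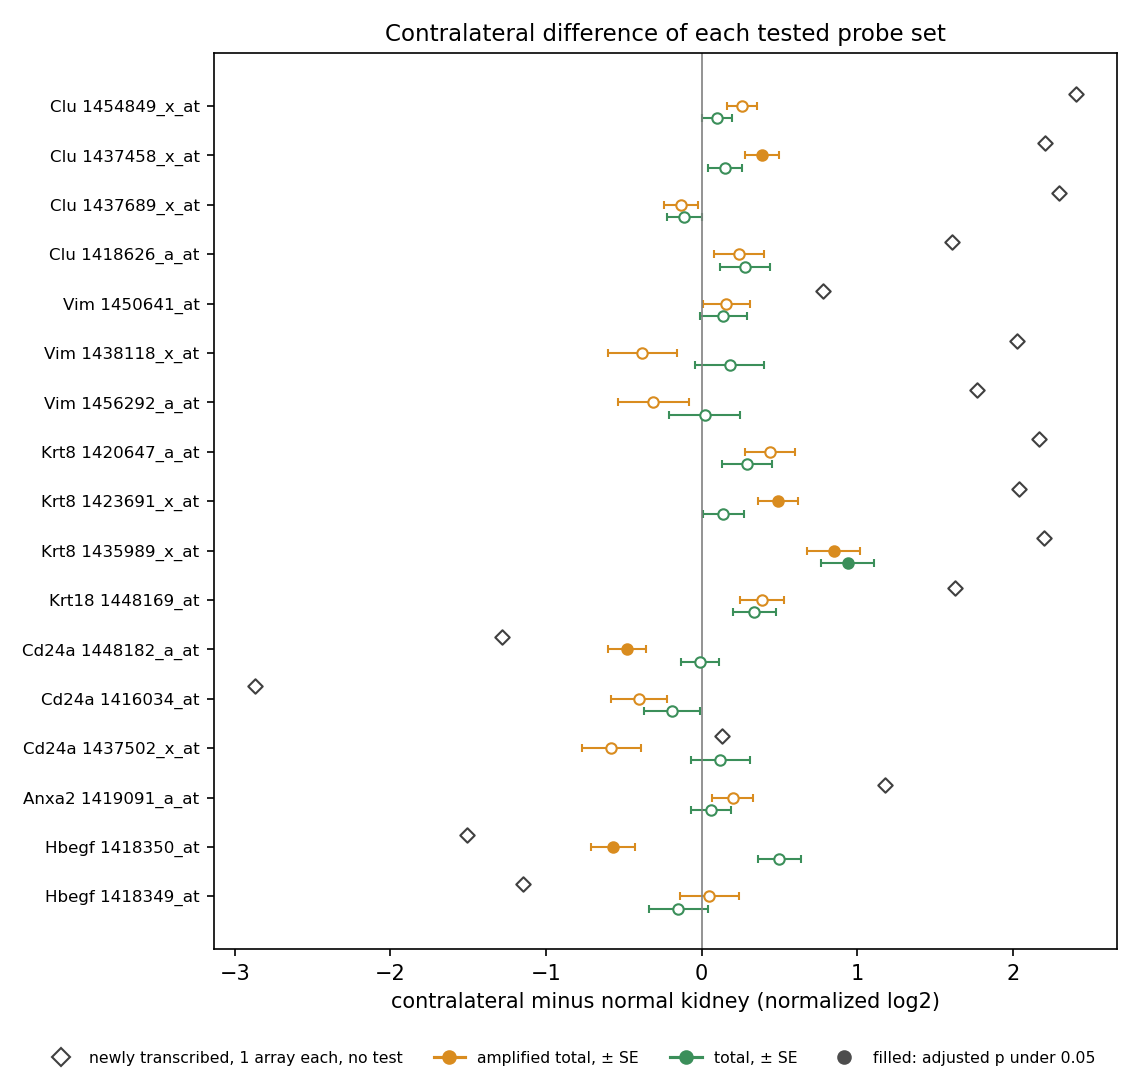
Contralateral minus normal difference (horizontal axis, normalized log2 units) of each of the 17 tested probe sets (vertical axis), in newly transcribed RNA (open diamonds, 1 array each, no test), amplified total RNA (orange) and total RNA (green), with bars of 1 standard error and filled circles where the adjusted p was under 0.05. The newly transcribed differences of Clu and Krt8 lie between 1.61 and 2.41, and those in the other preparations lie much nearer 0.

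Clu encodes clusterin, a secreted chaperone that binds misfolded proteins and cell debris. Its brightest probe set (1454849_x_at) stood at 10.85 on the contralateral and 8.45 on the normal newly transcribed array. It stood at 10.73 and 10.64 in contralateral and at 10.36 and 10.48 in normal amplified total RNA. Its total RNA levels were 10.42 and 10.5 on the contralateral arrays and 10.3 and 10.43 on the normal arrays. The newly transcribed arrays lay 2.41 apart, or 5.3-fold, and the total RNA arrays overlapped. Contralateral newly transcribed RNA was highest, contralateral amplified total RNA came next, and normal newly transcribed RNA was lowest. The ranges of the other 3 groups overlapped.

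The Clu difference was 0.63 ± 0.3 over all preparations (adjusted p = 0.355), 0.26 ± 0.097 in amplified total RNA (adjusted p = 0.115) and 0.1 ± 0.097 in total RNA (adjusted p = 0.707). None passed, and the 95% interval in total RNA ran from -0.12 to 0.31. Each of the other 3 Clu probe sets stood higher in contralateral newly transcribed RNA, by 2.21, 2.3 and 1.61. Of these, 1437458_x_at rose in amplified total RNA by 0.39 ± 0.11 (adjusted p = 0.042). That call held in 8 of 19 alternative fits (0.26 to 0.53, adjusted p = 0.0109 to 0.21). It was lost without contralateral amplified total replicate 2 (0.26, adjusted p = 0.145) and without normal amplified total replicate 1 (0.4, adjusted p = 0.171) or 2 (0.38, adjusted p = 0.21). It was lost without any 1 of the 4 total RNA arrays too (0.39 each, adjusted p = 0.0588 to 0.0675). The probe set 1437689_x_at gave -0.13 in amplified total RNA (adjusted p = 0.522). Across the 10 arrays the Clu probe sets correlated with each other at Pearson r = 0.581 to 0.924.

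The genes whose levels over the 10 arrays were most like those of Clu 1454849_x_at were Ndufa2 (Pearson r = 0.99), Apom (0.986) and Akr7a5 (0.982). These arrays share 6 groups and a wide gap between the newly transcribed arrays.

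Vim encodes vimentin, the filament protein of mesenchymal cells that damaged tubule cells also express. Its brightest probe set (1450641_at) stood at 7.97 on the contralateral and 7.19 on the normal newly transcribed array, a difference of 0.78. It overlapped between the kidneys in amplified total RNA, with 8.22 and 8.45 on the contralateral and 8.24 and 8.11 on the normal arrays. It overlapped in total RNA too, with 7.73 and 7.58 on the contralateral and 7.69 and 7.33 on the normal arrays. Its difference was 0.28 ± 0.15 over all preparations (adjusted p = 0.397), and it passed in no contralateral comparison. The other 2 Vim probe sets were higher on the contralateral newly transcribed array by 2.03 and 1.77, and gave -0.38 and -0.31 in amplified total RNA. They correlated with each other at r = 0.971 and with 1450641_at at 0.222 and 0.256 over the 10 arrays.

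Vimentin is abundant in fibroblasts, endothelium and leukocytes as well. Of 8 fibroblast and smooth muscle markers, 0 passed in total or amplified total RNA. Their summed linear level was 4340 on the contralateral and 1590 on the normal newly transcribed array. It was 2710 and 3400 in contralateral and 3250 and 2990 in normal amplified total RNA, and 2780 and 3450 in contralateral and 3130 and 2970 in normal total RNA. None of these markers was at 0, and their part in the Vim values was not tested.

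Havcr1 encodes KIM-1, a receptor on injured proximal tubule cells with which they take up dying neighbours. It was dim on every array, between the 10.3 and the 47.5 percentile of all probe sets of an array. Its 1 probe set stood at 5.32 on the contralateral and 3.92 on the normal newly transcribed array, where the deposited intensities were 13 and 4.8. It stood at 4.35 and 5.22 in contralateral and at 4.82 and 4.77 in normal amplified total RNA. In total RNA it stood at 4.93 and 5.34 on the contralateral arrays and at 5.14 and 5.63 on the normal arrays. The groups overlapped in both replicated preparations. Whether these intensities exceed background is unknown here, because detection calls were not used.

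In a fit without the filter on dim probe sets, the Havcr1 difference was 0.18 ± 0.27 over all preparations (adjusted p = 0.809), with a 95% interval of -0.43 to 0.79. It was -0.01 in amplified total RNA (interval -0.73 to 0.72) and -0.25 in total RNA (interval -0.98 to 0.47), and neither passed. Since log2 differences of dim probe sets are understated, these intervals hold for this scale only. The genes with the levels most like those of Havcr1 were Desi1 (r = 0.969), Smim26 (0.957) and Pold2 (0.93) over the 10 arrays. As for Clu, the arrays share 6 groups, and the Havcr1 probe set lay below the filter.

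Havcr1 and Clu take part in clearing dead cells and debris. A list of relatives and partners chosen around that task, with 8 tested genes, was set beside them. Whether each listed gene takes part in clearance was not tested. One of the 8, Timd2, a relative of Havcr1 with 1 RefSeq gene starting between them, fell over all preparations and in both replicated preparations. The fall was 0.95 over all preparations (adjusted p = 0.0257), 0.69 in amplified total RNA (adjusted p = 0.00772) and 0.95 in total RNA (adjusted p = 0.0058). In amplified total RNA, where 6.22% of all probe sets fell and 4.1% rose, 4 of the 8 fell and 0 rose. Besides Timd2 these were Gas6, a bridge between phosphatidylserine and its receptors (-0.54, adjusted p = 0.016), Lrp2, the endocytic receptor megalin (-0.59, adjusted p = 0.0148), and the lipoprotein receptor Vldlr (-0.91, adjusted p = 0.0352). The list's median was -0.36 in amplified total RNA and 0.01 in total RNA, against 0.02 and -0.01 over all probe sets.

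Lrp2 is also a marker of the proximal tubule, the segment that makes Havcr1. Of 8 tested proximal tubule markers 2 fell in amplified total RNA, Lrp2 and the fatty acid transporter Slc27a2 (-0.31, adjusted p = 0.0213), and 0 passed in total RNA. Of all probe sets 6.22% fell in amplified total RNA. The summed linear level of the 8 markers was 13200 on the contralateral and 17400 on the normal newly transcribed array. It was 19500 and 19400 in contralateral and 21400 and 21200 in normal amplified total RNA. In total RNA it was 19800 and 19700 on the contralateral and 20700 and 19800 on the normal arrays. None of the markers was at 0. Their part in the values of Havcr1 and of its listed relatives and partners was not tested.

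Cd44, the receptor for hyaluronan and osteopontin, was dim as well. Its brighter probe set (1423760_at) stood at 5.6 on the contralateral and 5.12 on the normal newly transcribed array. It overlapped between kidneys in amplified total RNA (3.85 and 4.45 contralateral, 4.02 and 4.7 normal) and in total RNA (4.14 and 4.87 contralateral, 4.74 and 5.02 normal). In the fit without the filter its difference was -0.14 over all preparations (adjusted p = 0.82), -0.21 in amplified total RNA (adjusted p = 0.812) and -0.38 in total RNA (adjusted p = 0.757). Of 10 tested receptors and partners of osteopontin and Cd44, 0 passed in total RNA. In amplified total RNA, where 6.22% of all probe sets fell, 2 of the 10 fell. These were the integrin subunits Itgb6 (-1.65, adjusted p = 0.00473) and Itgav (-0.37, adjusted p = 0.0473), which pair with each other.

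Cd24a encodes a small glycoprotein of the cell surface found on developing and regenerating epithelia and on leukocytes. Its brightest probe set (1448182_a_at) stood at 10.17 on the contralateral and 11.46 on the normal newly transcribed array. It stood at 10.28 and 9.97 in contralateral and at 10.6 and 10.61 in normal amplified total RNA. Its total RNA levels were 9.84 and 9.88 on the contralateral arrays and 10 and 9.75 on the normal arrays. The contralateral arrays were lower without overlap in amplified total RNA, where 54.9% of all probe sets did not overlap in either direction. They overlapped with the normal arrays in total RNA. In newly transcribed RNA, with 1 array for each kidney, the contralateral array was lower.

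Cd24a fell by 0.48 ± 0.12 in amplified total RNA (limma, adjusted p = 0.0288), to 0.717 of the normal level. Its difference was -0.01 ± 0.12 in total RNA (adjusted p = 0.982), with a 95% interval of -0.28 to 0.25. The effects in amplified total and total RNA differed by -0.47 ± 0.17, which did not pass (adjusted p = 0.178). The call held in 12 of 20 alternative fits (-0.64 to -0.33, adjusted p = 0.00931 to 0.16). It was lost without contralateral amplified total replicate 2 (-0.33, adjusted p = 0.114) or normal amplified total replicate 1 (-0.49, adjusted p = 0.141) or 2 (-0.48, adjusted p = 0.16). The other 2 Cd24a probe sets gave -0.4 (1416034_at, adjusted p = 0.201) and -0.58 (1437502_x_at, adjusted p = 0.0862) in amplified total RNA and did not pass. They parted on the newly transcribed arrays. There 1416034_at stood at 7.01 in the contralateral and 9.88 in the normal kidney, a difference of -2.87. The probe set 1437502_x_at stood at 9.11 in the contralateral and 8.97 in the normal kidney, a difference of 0.13. Over the 10 arrays these 2 probe sets correlated at r = -0.0179.

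Of 7 tested leukocyte markers, 0 passed in amplified total or total RNA. The summed linear level of all 10 leukocyte markers with a probe set, tested or not, was 2330 on the contralateral and 1120 on the normal newly transcribed array. It was 1950 and 1510 in contralateral and 1330 and 1360 in normal amplified total RNA, and 1270 and 1020 in contralateral and 1160 and 1330 in normal total RNA. The part of leukocyte RNA in the Cd24a values was not tested.

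**Figure D3:**
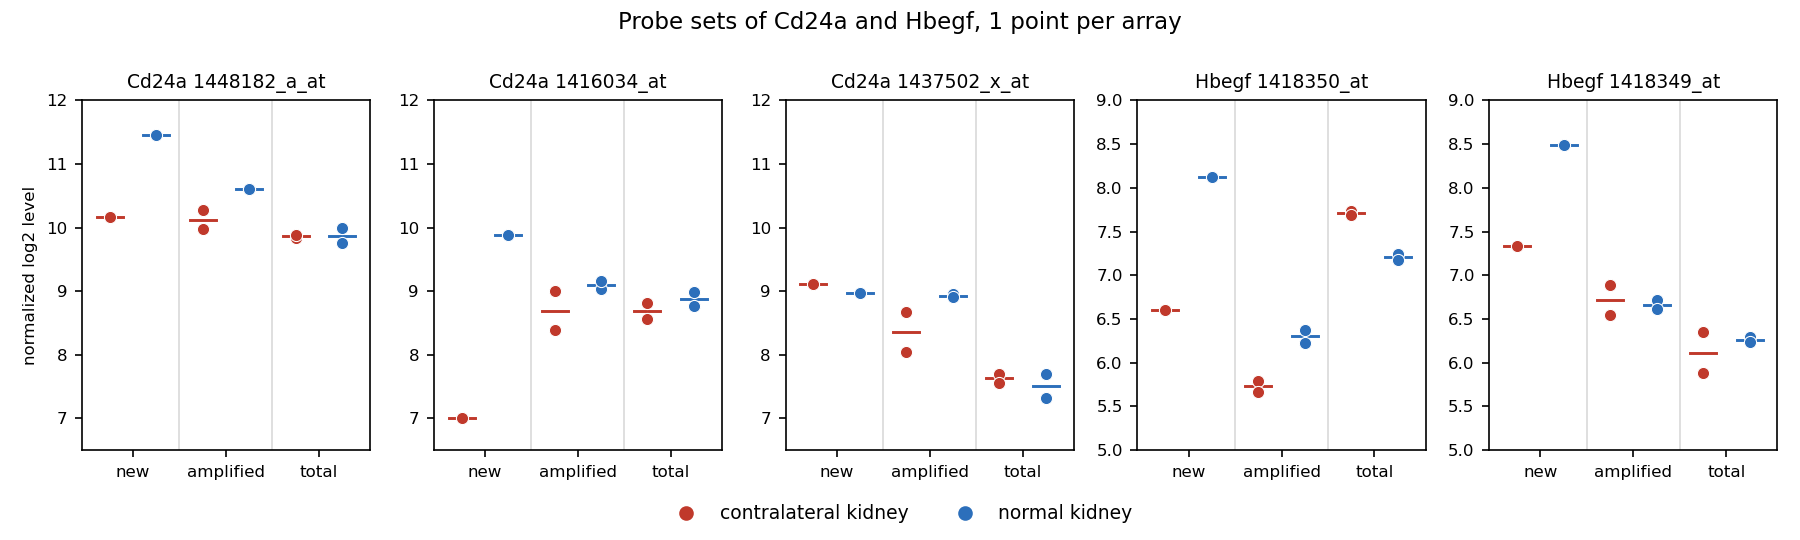
Normalized log2 level (vertical axis) of the 3 Cd24a and 2 Hbegf probe sets by RNA preparation (horizontal axis), with 1 point per array and a bar at the group mean, contralateral in red and normal in blue. Hbegf 1418350_at is lower in contralateral newly transcribed and amplified total RNA and higher in contralateral total RNA, while 1418349_at overlaps in both replicated preparations.

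Anxa2 encodes annexin A2, a calcium-dependent membrane protein that works with S100a10. Its tested probe set (1419091_a_at) stood at 8.88 on the contralateral and 7.7 on the normal newly transcribed array, a difference of 1.18. It stood at 8.82 and 8.56 in contralateral and at 8.47 and 8.51 in normal amplified total RNA, and at 9.26 and 9.04 in contralateral and 9.17 and 9.02 in normal total RNA. The total RNA arrays overlapped. The difference was 0.34 ± 0.18 over all preparations (adjusted p = 0.389), 0.2 ± 0.13 in amplified total RNA (adjusted p = 0.389) and 0.06 ± 0.13 in total RNA (adjusted p = 0.88), and none passed.

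Hbegf encodes heparin-binding EGF-like growth factor, a ligand that is cut from the cell surface and activates the EGF receptor. Its brighter probe set (1418350_at) stood at 6.6 on the contralateral and 8.12 on the normal newly transcribed array. It stood at 5.79 and 5.67 in contralateral and at 6.23 and 6.37 in normal amplified total RNA. Total RNA gave 7.73 and 7.69 on the contralateral arrays and 7.24 and 7.17 on the normal arrays. The kidneys did not overlap in amplified total RNA, like 54.9% of all probe sets, or in total RNA, like 46.6%. In newly transcribed RNA there was 1 array for each kidney. The contralateral kidney was lower in newly transcribed and amplified total RNA and higher in total RNA. From high to low, the groups ran normal newly transcribed, contralateral total, normal total, contralateral newly transcribed, normal amplified total and contralateral amplified total RNA. Neighbouring groups did not overlap, but each newly transcribed group was 1 array.

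Hbegf by this probe set fell by 0.57 ± 0.14 in amplified total RNA (limma, adjusted p = 0.0271), to 0.675 of the normal level. In total RNA the difference was 0.5 ± 0.14 and did not pass (adjusted p = 0.118). The test of the difference between both effects passed, at -1.07 ± 0.2 (adjusted p = 0.0108), and 4.46% of all probe sets passed that test, 3.82% with a negative difference. The second probe set, 1418349_at, overlapped between kidneys in both preparations. It gave 0.05 ± 0.19 in amplified total RNA (adjusted p = 0.911), -0.15 ± 0.19 in total RNA (adjusted p = 0.763) and 0.2 ± 0.26 for the difference between them (adjusted p = 0.749). On the newly transcribed arrays it stood at 7.34 in the contralateral and 8.49 in the normal kidney, a difference of -1.15, against -1.51 for 1418350_at. The 2 Hbegf probe sets correlated at r = 0.148 over the 10 arrays.

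The fall in amplified total RNA passed in 14 of 20 alternative fits (-0.69 to -0.26, adjusted p = 0.0179 to 0.277). It did not pass without contralateral amplified total replicate 2 (-0.5, adjusted p = 0.0915) or normal amplified total replicate 1 (-0.63, adjusted p = 0.0939) or 2 (-0.49, adjusted p = 0.203). The mean of both probe sets gave -0.26 (adjusted p = 0.277). The difference between effects passed in 17 of 20 (-1.23 to -0.43, adjusted p = 0.00997 to 0.294). It did not pass without normal amplified total replicate 2 (-0.99, adjusted p = 0.0709) or normal total replicate 2 (-1.04, adjusted p = 0.0518), nor with the mean of both probe sets (-0.43, adjusted p = 0.294).

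The genes most like Hbegf 1418350_at in level over the 10 arrays were Rab14 (r = 0.993), Rab22a (0.968) and Vps41 (0.967). As for Clu, the arrays share 6 groups, and the second Hbegf probe set correlated with 1418350_at at 0.148 only. Of 8 tested ligands, receptors and sheddases of the EGF receptor family, 0 passed over all preparations, 1 rose in total RNA and 1 fell in amplified total RNA. Of all probe sets 1.58% rose in total RNA and 6.22% fell in amplified total RNA. The receptor Erbb3 rose by 0.56 in total RNA (adjusted p = 0.0207), and the receptor Erbb2 fell by 0.66 in amplified total RNA (adjusted p = 0.0221). The receptor Egfr itself gave 0.04 in amplified total RNA (adjusted p = 0.902) and 0.08 in total RNA (adjusted p = 0.851). The list's median was -0.19 in amplified total RNA and 0 in total RNA.

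The members were also set beside 20 other tested genes of tubular injury and repair. In total RNA 3 of the 20 rose and 0 fell, where 1.58% of all probe sets rose. These were Tnfrsf12a, the receptor for the cytokine TWEAK (2.05, adjusted p = 0.000424), Ddit4, an inhibitor of mTOR signalling (1.55, adjusted p = 5.45e-05), and the matricellular protein gene Ccn2 (1.04, adjusted p = 0.046). In amplified total RNA, where 4.1% of all probe sets rose and 6.22% fell, 5 of the 20 rose and 1 fell. Ddit4 (1.2, adjusted p = 7.97e-05), Tnfrsf12a (0.91, adjusted p = 0.012), Ccn1 (0.76, adjusted p = 0.023), the galectin gene Lgals3 (0.6, adjusted p = 0.0296) and S100a10, the partner of annexin A2 (0.56, adjusted p = 0.0118), rose. The tight junction gene Cldn7 fell by 0.52 (adjusted p = 0.0383). Over all preparations Ddit4 alone of the 20 passed (1.33, adjusted p = 0.0013). The list's median was 0.27 in amplified total RNA and 0.16 in total RNA, and 0.85 on the newly transcribed arrays, where the members' median was 1.18.

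Newly transcribed RNA was compared with amplified total RNA over both kidneys, the total RNA whose titles name amplification. This asks which members were over- or under-represented among transcripts made during the s4U pulse. Of the 7 tested genes 1 was higher and 1 lower, and 28.6% of all probe sets passed, 11.9% higher and 16.7% lower. Hbegf was higher in newly transcribed RNA by 1.35 ± 0.36, or 2.55-fold (limma, adjusted p = 0.0195), and its second probe set by 1.23 ± 0.27, or 2.34-fold (adjusted p = 0.00771). In this comparison the 2 Hbegf probe sets passed with the same direction. In the contralateral kidney they were 0.88 (1418350_at) and 0.63 (1418349_at) higher, and in the normal kidney 1.82 and 1.83 higher. The call of 1418349_at held in 18 of 18 alternative fits (0.67 to 1.79, adjusted p = 0.000181 to 0.0386). That of 1418350_at held in 16 of 19 (0.59 to 2.12, adjusted p = 0.000521 to 0.143), and of the arrays left out in turn it was lost without normal newly transcribed replicate 1 (0.59, adjusted p = 0.143) or contralateral amplified total replicate 2 (1.26, adjusted p = 0.0542).

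Vim (1450641_at) was lower in newly transcribed RNA by 0.68 ± 0.2 (adjusted p = 0.0307), with -0.37 in the contralateral and -0.99 in the normal kidney. Its call held in 12 of 19 alternatives (-1 to 0.17, adjusted p = 0.00168 to 0.717). Of the arrays left out in turn, it was lost without normal newly transcribed replicate 1 (-0.37, adjusted p = 0.124), contralateral amplified total replicate 2 (-0.65, adjusted p = 0.0723), or normal amplified total replicate 1 (-0.63, adjusted p = 0.0777) or 2 (-0.68, adjusted p = 0.0664). The other 2 Vim probe sets were higher in newly transcribed RNA of the contralateral kidney (1.82 and 1.61) and lower in that of the normal kidney (-0.59 and -0.48). Clu 1418626_a_at was lower by 1.47 ± 0.29 (adjusted p = 0.00492), with -0.79 in the contralateral and -2.15 in the normal kidney, and held in 18 of 18 alternatives (-2.16 to -0.8, adjusted p = 1.53e-05 to 0.035).

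For most other members the values of both kidneys lay on opposite sides of 0. In the contralateral kidney Krt8 1420647_a_at gave 0.71, Krt18 0.46, Anxa2 0.19 and Clu 1454849_x_at 0.17. In the normal kidney Krt8 1420647_a_at gave -1.02, Krt18 -0.78, Anxa2 -0.79 and Clu 1454849_x_at -1.97. With 1 newly transcribed array for each kidney, these differences between kidneys have no replicate check. Their mean over both kidneys passed for none of these 4 probe sets. Over alternative fits of this comparison, including arrays left out in turn, Clu 1454849_x_at ran from -1.99 to 0.22 and Anxa2 from -0.83 to 0.23. Cd44 1423760_at, below the filter, was higher in newly transcribed RNA by 1.11 ± 0.31 in the fit without the filter (adjusted p = 0.0357).

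**Figure D4:**
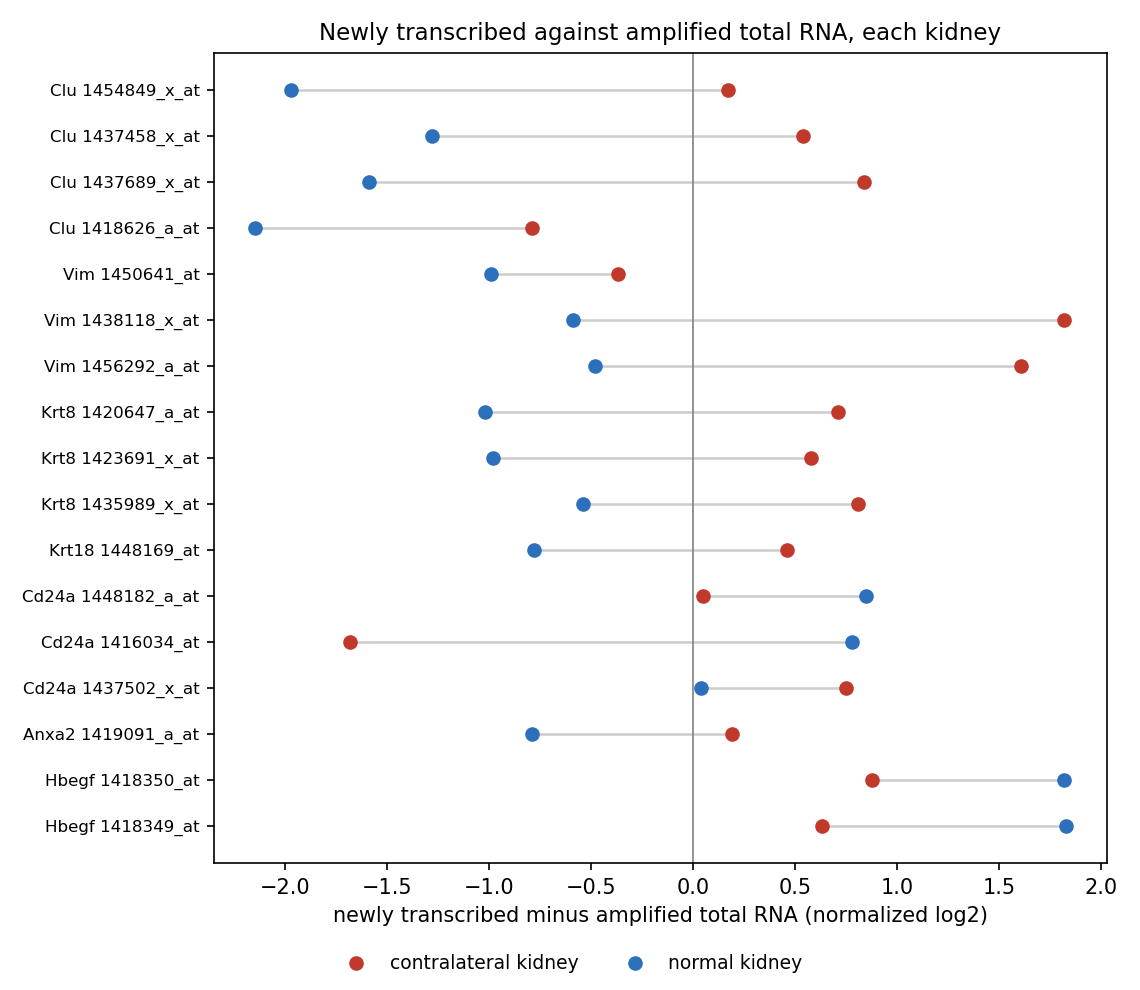
Newly transcribed minus amplified total RNA (horizontal axis, normalized log2 units) for each of the 17 tested probe sets (vertical axis), contralateral kidney in red and normal kidney in blue, each point being 1 newly transcribed array minus the mean of 2 amplified arrays. Both Hbegf probe sets lie above 0 in both kidneys, while Krt8, Krt18, Anxa2 and 3 of the 4 Clu probe sets lie above 0 in the contralateral and below 0 in the normal kidney.

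Amplified total RNA was also compared with total RNA, where 38.4% of all probe sets passed. Of all probe sets 20.7% were higher and 17.6% lower in amplified total RNA. Of the 7 tested genes 1 was higher and 1 lower in amplified total RNA. The labels do not say whether both preparations came from the same mice, so preparation and mouse cannot be told apart. Vim was higher by 0.67 ± 0.16 (adjusted p = 0.00962), and Hbegf 1418350_at was lower by 1.44 ± 0.29 (adjusted p = 0.00379). The Hbegf probe set was lower by 1.98 in the contralateral and by 0.91 in the normal kidney, and its second probe set gave 0.5 (adjusted p = 0.0956). Krt8 1435989_x_at was higher by 0.97 ± 0.24 (adjusted p = 0.0096) and Cd24a 1437502_x_at by 1.07 ± 0.2 (adjusted p = 0.0026). Each of these 4 genes had at least 1 other probe set that did not pass in this comparison.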

How the data were processed

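RNA of contralateral and normal mouse kidneys was measured in 3 preparations on 10 arrays. The authors deposited 1 linear intensity per probe set and array. How they were summarised and scaled is not given in the sources used here. No detection call was used, no value is called above background, and the number of arrays limits the precision. Column isolation, linear amplification and biotin labelling by T7 transcription are described for every array, per the labels' protocols, although only some titles call the RNA amplified. What was done to total RNA beyond this is not stated.

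Intensities were transformed as log2(intensity + 11.8), 11.8 being the 25th percentile of all values, and quantile normalized after 64 control probe sets were set aside. Probe sets with a mean above the 40th percentile were tested, 13575 of 22626. The log2 scale understates changes of dim probe sets. Two-sided tests were run in limma 3.58.1 under R 4.3.3, with lmFit and with eBayes on an intensity trend. Benjamini-Hochberg adjustment ran over all tested probe sets, with a threshold of 0.05. For effects over all preparations and between them, kidney and preparation were additive terms (6 residual degrees of freedom), which assumes 1 contralateral effect for all preparations. Effects within a preparation and their difference came from a model of 6 group means (4 residual degrees of freedom). Contralateral and normal newly transcribed RNA, with 1 array for each kidney, were compared with each other by size only. Both arrays entered the tests over all preparations and between preparations. The fits were tested on simulated data.

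Symbols came from the platform annotation: 20380 probe sets have 1 symbol, 691 have several and 1555 are not listed. A check by Entrez number against RefSeq (GRCm38.p6) changed 0. A gene is represented by its brightest probe set over all arrays, and other probe sets are given where they disagree. All member probe sets are named. Other genes are named where they come from the lists of related genes and cell type markers and passed a contralateral test, up to 6 for each list and comparison, or were most correlated in level with Havcr1, Clu or Hbegf. Egfr was added after its values were seen. The members, lists and rules were chosen with earlier results of these data known. Whether arrays of equal number share a mouse is not stated in the labels, and p-values measure the spread between these arrays. Alternatives varied the pseudocount, normalization, filter, trend, arrays in the fit, probe set rule and replicate block, and left out each array in turn.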

Additional observations from a re-analysis of the deposited data

Results flagged for a closer look

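The contralateral effect on Hbegf 1418350_at differed between amplified total and total RNA by -1.07 log2 units (limma, adjusted p = 0.0108). In this probe set the newly transcribed difference of -1.51 was also opposite to the higher level in total RNA, and that difference was not tested. For 4 further probe sets the newly transcribed arrays gave a contralateral difference opposite in direction to amplified total RNA, where the kidneys did not overlap. These were Clu 1437689_x_at (2.3), Vim 1438118_x_at (2.03), Vim 1456292_a_at (1.77) and Cd24a 1437502_x_at (0.13). With 1 newly transcribed array for each kidney, the difference between preparations was not tested.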

How the results depend on the processing

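Over all preparations and in total RNA, 0 of the 7 genes passed in every one of the 20 alternatives, including each array left out in turn. In amplified total RNA the count of 2 became 1 with a pseudocount of 64 (Cd24a), with scaling to the 75th percentile, no filter or eBayes without a trend (Hbegf each), and with the mean of probe sets (Krt8, neither reported gene). It became 0 with only the arrays compared. Leaving out arrays in turn gave 0 to 2. The 1 gene whose effect differed between preparations became 0 with the mean of probe sets, and 0 to 2 with arrays left out. In newly transcribed against amplified total RNA the count of 2 became 1, Hbegf, with only the arrays compared or the mean of probe sets. It became 0 to 2 with an amplified total or total RNA array left out. Leaving out a newly transcribed array leaves 1 of that preparation, and no count of members is given for it. In amplified total against total RNA the count of 2 became 4 with only the arrays compared and 1 with the mean of probe sets, Anxa2 in place of Vim and Hbegf, and 2 to 4 with arrays left out. In newly transcribed against amplified total RNA, Vim turned to 0.17 with the mean of probe sets. With arrays left out, Krt8 1420647_a_at ran from -1.06 to 0.76 and Krt18 from -0.81 to 0.47, both turning positive without normal newly transcribed replicate 1. The cause of these changes was not tested. Of 813 values of members under alternatives, 744 kept their direction and side of the threshold or turned without being called, 55 no longer passed, 11 newly passed and 3 reversed. Counts of all passing probe sets, 60 as reported over all preparations, ranged from 12 without normal total replicate 1 to 332 without the normal newly transcribed array. The 259 in total RNA became 48 to 377, the 1400 in amplified total RNA 513 to 1535, and the 606 for the difference between effects 252 to 696. The 3885 between newly transcribed and amplified total RNA became 2332 to 6732, and the 5209 between amplified total and total RNA 3579 to 7912. With the replicate block, 0 of 7 genes passed in newly transcribed against amplified total RNA, where Hbegf gave 1.34 (adjusted p = 0.0522) and Vim -0.73 (adjusted p = 0.0561). The block changed no other count of members. For arrays of the same number, deviations from the group mean in total and amplified total RNA correlated at 0.1 in contralateral and 0.097 in normal kidneys. Between contralateral and normal groups the correlations were -0.07 to 0.042. Such weak values cannot show whether arrays share mice, and the numbers were not taken as pairs. If mice are shared, arrays of different preparations are not independent in the fits over all preparations. Quantile normalization within each preparation was not run for comparisons between preparations, which it would leave on different scales. Detection limits could not be set, since background levels were not used.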
